A study of Homo sapiens and Mus musculus with 8 samples.

Results

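Collagens, laminins and integrins are the main proteins by which an epithelial cell builds and holds its surrounding matrix, and 82 of the 60483 genes in the deposited count table encode them. The members were every protein-coding gene with a symbol of the form COL, number, A, number (44 collagens), LAMA, LAMB or LAMC with a number (12 laminins), and ITGA or ITGB with a number or one of the letters D, E, L, M, V and X (26 integrins). The rule itself reads symbols alone. Their transcripts were followed in 8 RNA-seq libraries made from KM12 and LS174T, which are established human colorectal cancer lines.

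Both lines were sequenced as cultured cells and as a cell line-derived xenograft (CDX), a tumor grown in a mouse, and each of these in 2 states of GNAS, the gene of the stimulatory G protein alpha subunit. The KM12 groups were parental cells, whose genotype is given as GNAS R201H, and cells labelled GNAS knock-out. The LS174T groups were all labelled GNAS R201H and differed in Dox (-) or Dox (+). The labels do not say what Dox switches on, and no LS174T library analysed here carried Dox without the R201H label, so a Dox effect and a GNAS effect cannot be told apart in that line. The number of clones behind the knock-out, the mouse strain and the injection site are not given in the sources used here. KM12 parental and LS174T Dox (+) are called the GNAS-active states below, and KM12 knock-out and LS174T Dox (-) the opposite states. Every group is 1 library, so no group has a replicate, and tests draw their spread from how far 4 matched pairs of libraries differ among themselves.

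Laminins are cross-shaped trimers of an alpha, a beta and a gamma chain that polymerise into the basement membrane, where type IV collagen forms a second network. Integrins are receptors of 1 alpha and 1 beta chain that bind these proteins and tie them to the cytoskeleton. Intestinal epithelium rests on such a membrane. The hemidesmosome, an anchoring structure of some epithelia, is built around integrin alpha 6 beta 4, laminin-332 and collagen XVII. LAMA3 and LAMB3 are the alpha and beta chains of laminin-332. Fibrillar collagens I, III and V are best known as products of fibroblasts.

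GNAS itself was read first, as counts scaled to library size (CPM). KM12 parental and knock-out cells stood at 1119 and 298 CPM in culture and at 1390 and 903 CPM as tumors. LS174T without and with Dox stood at 691 and 1746 CPM in culture and at 586 and 691 CPM as tumors. The active state was higher in 4 of 4 pairs, but by only 1.18-fold in LS174T xenografts (95% counting interval 1.15 to 1.21). Counts do not separate mutant from normal transcripts. Taken over pairs, GNAS differed by 1.03 ± 0.28 (SE) on the log2 scale and missed the 0.05 threshold of edgeR's quasi-likelihood F test (adjusted p = 0.776).

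Libraries held 15924846 to 37735085 counts, and each of the 4 xenografts held fewer than any culture. Markers of colorectal epithelium, 12 of 12 detected, summed to 9244 to 28323 CPM in cultures and 6863 to 9882 CPM in xenografts. The 15 fibroblast markers summed to 7.87 to 18.0 CPM in cultures and 11.9 to 21.2 CPM in xenografts, with 10 of them under 1 CPM in all 8 libraries. The 12 endothelial markers summed to 8.22 to 17.3 and 4.56 to 23.0 CPM, with KDR at 0 everywhere. The 14 leukocyte markers summed to 38.8 to 315 CPM in cultures and 8.15 to 769 CPM in xenografts, mostly LYZ except in the LS174T xenografts, with TYROBP at 0 in each library. The 11 muscle, adipocyte and red cell markers summed to 3.54 to 6.30 and 3.25 to 7.80 CPM, with ADIPOQ at 0. The labels give the mouse as the organism of the 4 xenografts, the submitters' processing notes name the builds hg38 and GRCm39, and the table holds 0 mouse gene identifiers. How mouse reads were treated is not given in the sources used here, so reads from mouse matrix genes may have been counted under their human counterparts. In bulk samples, fewer cells of a type and less RNA per cell cannot be told apart.

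Sequence before the start site is shown for 3 members whose chains work with a partner, because the partner's level is a result below. RefSeq promoter windows on GRCh38.p14, each 250 bases before a start and 50 after it, were found for 58 of the 82 genes, 77 windows in all. COL4A2 and COL4A1, the chains of the common type IV collagen trimer, start head to head on chromosome 13 and their windows share 226 bases. The first sequence is the 126 bases between their RefSeq starts, chr13:110307158-110307283, plus strand, with a CCAAT match in capitals. The second is the 250 bases before COL4A5, chrX:108439588-108439837, plus strand, with capitals for the 121 bases shared with the window of its head-to-head neighbour COL4A6. The third is chr1:209651375-209651624, minus strand, before 1 of the 3 RefSeq starts of LAMB3, the beta chain of laminin-332. It lies inside the annotated gene, downstream of the other starts, and its capitals mark the match to TGANTCA, the letters of an AP-1 site, which the windows of the other LAMB3 starts do not hold.
COL4A2: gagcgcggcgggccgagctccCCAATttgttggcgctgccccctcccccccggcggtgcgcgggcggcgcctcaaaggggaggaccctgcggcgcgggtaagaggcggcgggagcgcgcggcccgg
COL4A5: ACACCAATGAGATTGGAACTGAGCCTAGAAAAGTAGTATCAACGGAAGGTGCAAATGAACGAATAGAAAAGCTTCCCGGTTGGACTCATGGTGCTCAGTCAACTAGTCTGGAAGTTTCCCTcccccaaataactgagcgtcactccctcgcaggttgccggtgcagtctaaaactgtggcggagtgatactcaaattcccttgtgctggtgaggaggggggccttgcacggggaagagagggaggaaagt
LAMB3: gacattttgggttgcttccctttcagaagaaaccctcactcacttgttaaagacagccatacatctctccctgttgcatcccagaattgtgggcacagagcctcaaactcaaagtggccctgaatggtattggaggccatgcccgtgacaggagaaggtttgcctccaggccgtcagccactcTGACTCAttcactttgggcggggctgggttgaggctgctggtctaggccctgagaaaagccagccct
TGANTCA on either strand occurred in 4 of the 77 member windows (5.20%), those of COL10A1, ITGA5, LAMA3 and LAMB3, and in 7.71% of 35116 windows of all genes. It contains none of the other motifs searched and lies in none of them. TGACGTCA, the full cAMP response element, occurred in 0 of 77 member windows and 1.85% of all, and its core TGACG, which the full element contains, in 23.4% and 24.6%. GGGCGG, the GC box, occurred in 55.8% and 44.95%, and CCAAT in 26.0% and 34.6%. A match describes letters in a window and not a bound site.

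Of the 82 members, 44 reached 1 CPM in at least 2 libraries and were tested with the other genes at that level, 16070 in all: 19 of 44 collagens, 9 of 12 laminins and 16 of 26 integrins. Of these, 26 were at 1 CPM or more in all 8 libraries. Collagens made up 0.0160% to 0.0568% of a library's counts, laminins 0.0769% to 0.175% and integrins 0.149% to 0.246%. To compare genes, CPM was divided by the merged exon length in kilobases, and each level in this paragraph is on that scale. ITGA6 and ITGB4, the 2 chains of the hemidesmosome integrin, averaged 119.7 and 81.1 over the 8 libraries, followed among integrins by ITGB1 (52.9), the partner of most matrix-binding alpha chains, ITGB5 (11.3) and ITGAV (8.70), which pair to bind vitronectin. Among laminins LAMB3 averaged 38.2, LAMB1 27.0, LAMA5 19.3 and LAMB2 17.2. COL17A1, the transmembrane collagen of the hemidesmosome, led the collagens at 27.1, then COL18A1, the source of endostatin (11.5), and COL6A1 (6.51). COL3A1 averaged 4.12 from 1 library alone, and COL7A1, the anchoring fibril collagen, averaged 1.58.

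**Figure D1:**
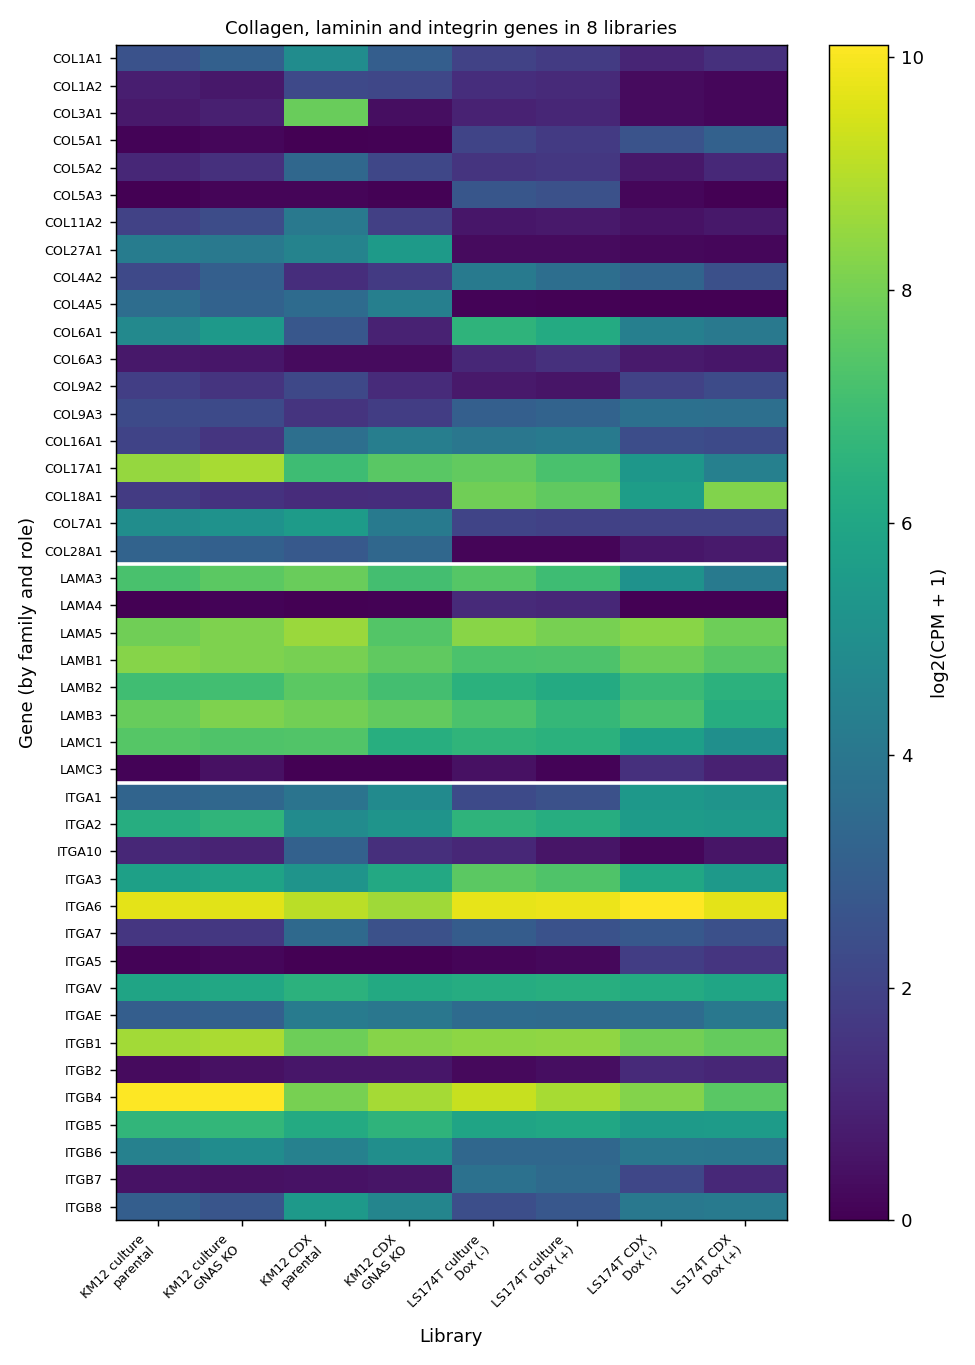
Each line is 1 of 43 of the tested genes, grouped by family with white lines between collagens, laminins and integrins; each column is 1 library, and colour is log2(CPM + 1). The epithelial laminin chains and ITGA6, ITGB1 and ITGB4 are bright in all 8 columns, while COL3A1 is bright in the KM12 parental xenograft alone.

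Chains of collagens IV and VI were counted at unlike levels. Per kilobase of exon, COL4A2 reached 0.86 in the LS174T Dox (-) culture, where COL4A1 stood at 0.050, and in the KM12 knock-out culture the levels were 0.381 and 0.00199. COL4A1 had 0 to 24 counts per library and COL4A2 26 to 542, although their starts lie side by side. COL4A5 had 182 to 400 counts in the 4 KM12 libraries and COL4A6, its neighbour, 6 to 11. COL6A1 reached 17.9 per kilobase in the LS174T Dox (-) culture, against 0.120 for COL6A2 and 0.061 for COL6A3, the other chains of collagen VI. COL4A1 and COL4A2 overlap on opposite strands in the annotation used here, and whether counting used strand is not given, so reads in the overlap are uncertain. Antisense genes also overlap COL4A2, COL5A1, COL18A1, LAMA5, LAMC1, ITGA6, ITGB2 and ITGB5.

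The 38 members below that level were 25 collagens, 3 laminins and 10 integrins. Among them 23 had under 10 counts in each of the 8 libraries, and none was at 0 in all 8. They included ITGA4, ITGAL, ITGAM and ITGB3, chains of leukocyte and platelet integrins, which stayed below 1 CPM. The highest value among the 38 was 2.75 CPM, for LAMA1 in the KM12 parental xenograft. LAMA1, an embryonic laminin alpha chain, had 48 counts there and 0 in the knock-out xenograft, which is at least 18.9-fold higher against a floor of 3 counts. The LS174T xenografts went the other way by GNAS state, with 20 counts in Dox (-) and 2 in Dox (+). Every culture had 0 counts of LAMA1, and the part of mouse reads was not tested. ITGAX reached 2.16 CPM in 1 library.

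The comparison of KM12 with LS174T paired libraries of the same environment, with GNAS states matched by label only: parental with Dox (+), and knock-out with Dox (-). In these pairs, KM12 first, GNAS stood at 1119 against 1746 and 298 against 691 CPM in cultures. In tumors it stood at 1390 against 691 and 903 against 586 CPM. The largest differences were in collagen genes: COL4A5, COL27A1 and COL28A1 were counted nearly in KM12 alone, and COL18A1 and COL5A1 nearly in LS174T alone. Of 44 members, 20 differed at an adjusted p under 0.05, 13 higher in KM12 and 7 lower, beside 31.5% of all 16070 genes, 14.8% higher and 16.7% lower. By family these were 7 higher and 6 lower of 19 collagens, 3 and 0 of 9 laminins, and 3 and 1 of 16 integrins. The median log2 difference was 0.19 over the members and 0.02 over all genes. Of the members, 4 reached 1 CPM in KM12 alone (COL4A5, COL11A2, COL27A1 and COL28A1) and 8 in LS174T alone. The 8 include COL5A1, COL6A3 and ITGB7. Those members passed the level filter only through the line where they were high. Their fitted differences and p-values are therefore no independent support for a difference. Of the 32 seen in both lines, 9 were higher and 4 lower in KM12. The share among all genes seen in both lines was not computed, so this count is no result about the members.

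COL4A5, a basement membrane collagen chain, stood at 11.2 and 8.14 CPM in KM12 cultures (parental, then knock-out) and 10.4 and 19.4 in xenografts, against 0.06 and 0.03 in LS174T cultures (Dox (-), then Dox (+)) and 0 counts in both LS174T xenografts. Every KM12 library was above every LS174T library, and in the xenografts KM12 was at least 71.7-fold and at least 159-fold higher, against 3 counts per library. COL27A1, a fibrillar collagen of cartilage, read 17.8, 16, 21.7 and 44.2 CPM in KM12 in the same order and 0.15 to 0.23 CPM in LS174T. The log2 difference was 6.85 ± 0.41 (SE, 4 pairs, adjusted p = 0.000557). COL27A1, COL28A1 and COL11A2 passed the level filter through KM12 alone, so their fitted values are no independent support for a difference. COL28A1, a collagen with von Willebrand A domains, lay at 6.02 to 9.42 CPM in KM12 and 0.09 to 0.68 in LS174T (log2 difference 4.79). COL7A1 lay at 16.6 to 46.4 against 2.85 to 3.25 CPM, a log2 difference of 3.32 ± 0.28. COL11A2, a minor fibrillar chain, was also higher in KM12, by 3.16 on the log2 scale, and COL1A1 by 2.27. COL17A1 was higher in KM12 in 4 of 4 pairs (log2 difference 1.80 ± 0.30), though its ranges of 125 to 444 and 20.2 to 206 CPM overlap.

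COL18A1, a basement membrane proteoglycan collagen, went the other way. It read 2.37, 1.82, 1.43 and 1.5 CPM in KM12 and 239, 200, 48.0 and 289 CPM in LS174T, a log2 difference of -6.54 ± 0.50 (adjusted p = 0.00111). No library of one line came near the other line. COL5A1, which regulates fibril diameter, stood at 0 to 0.12 CPM in KM12 and 2.32 to 7.71 in LS174T, and its fitted log2 difference of -5.84 rests on 0 to 4 counts in KM12. COL9A3, a cartilage collagen chain, lay at 1.83 to 3.87 against 7.30 to 12.5 CPM (log2 difference -1.74). COL6A1 (-1.93), COL4A2 (-1.57) and COL6A3 (-1.32) were lower in KM12 in 4 of 4 pairs with overlapping ranges. COL5A1 and COL6A3 passed the level filter through LS174T alone, so their fitted values are no independent support for a difference. Without the filter on low counts COL6A1 and COL6A3 no longer passed (adjusted p = 0.174 and 0.0997), and in the CDX pairs alone COL18A1 missed the threshold (adjusted p = 0.0641).

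**Figure D2:**
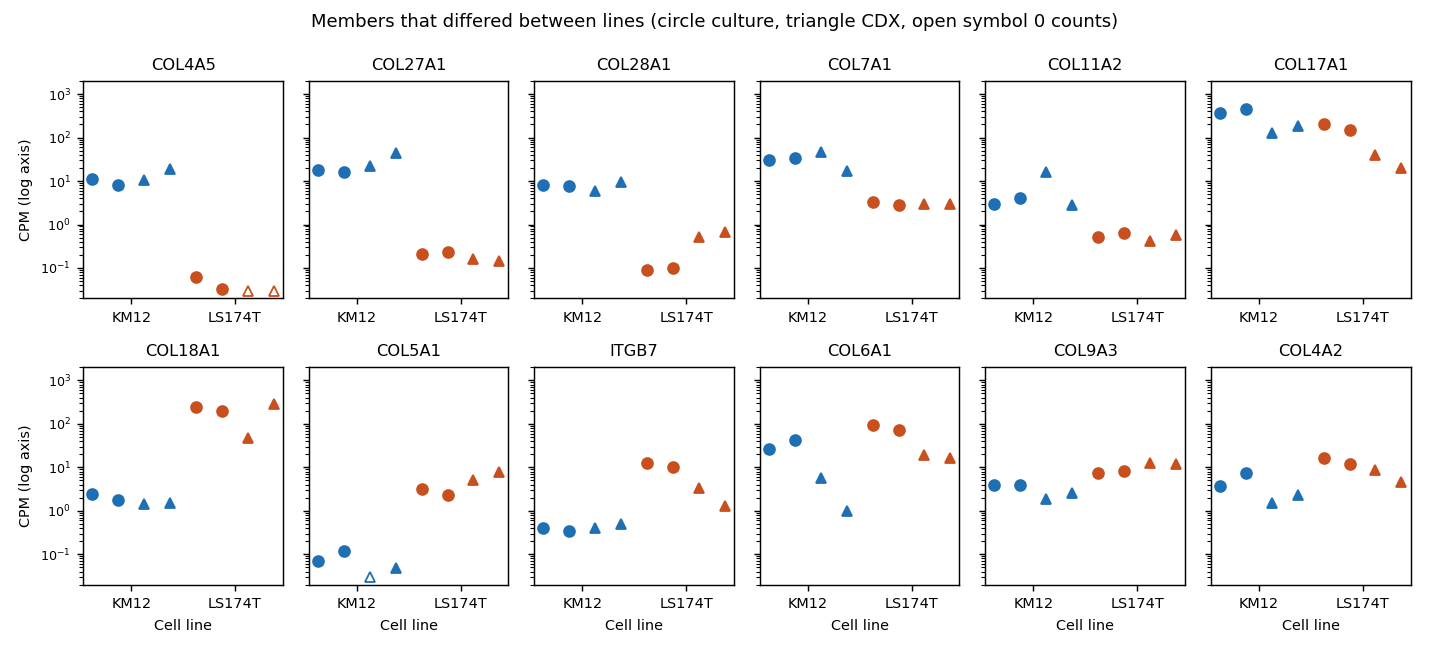
CPM on a log axis for 12 members that differed between the lines; circles are cultures, triangles CDX tumors, blue KM12 and orange LS174T, in the library order used in the text, and open symbols near the lower edge stand for 0 counts. COL4A5, COL27A1, COL28A1, COL7A1 and COL11A2 lie higher in all 4 KM12 libraries, and COL18A1, COL5A1, ITGB7 and COL9A3 in all 4 LS174T libraries.

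Of the laminins and integrins, 6 were higher and 1 lower in KM12. LAMB3 lay at 206 to 283 CPM in KM12 and 77.7 to 151 in LS174T, without overlap (log2 difference 1.03 ± 0.21, adjusted p = 0.0165). LAMB2, a beta chain of many basement membranes, differed by 0.67 and LAMC1, the commonest gamma chain, by 1.17, both higher in KM12. ITGB6, whose dimer with ITGAV activates TGF-beta and which epithelia express, lay at 20.6 to 31.3 against 9.31 to 14.9 CPM (log2 difference 1.09 ± 0.22). ITGB5 and ITGB4 were higher in KM12 by 0.79 and 0.78. ITGB7, a partner of the gut-homing alpha 4 chain and of ITGAE, lay at 0.35 to 0.49 CPM in KM12 and read 12.8, 10.2, 3.42 and 1.26 CPM in LS174T. Its log2 difference was -3.67 ± 0.71 (adjusted p = 0.0146), but it passed the level filter through LS174T alone, so this is no independent support. ITGA6 was lower in each KM12 library than in any LS174T library, 407 to 823 against 830 to 1103 CPM, but did not pass the test (adjusted p = 0.151). ITGAV hardly moved, at 59.2 to 90.5 and 60.1 to 80.2 CPM, with a log2 difference of -0.01 ± 0.19. Without the pair of GNAS-active cultures, 8 members were higher and 4 lower, with 1089 and 1637 genes of all. Without the other culture pair 7 were higher, with 1108 genes of all.

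The xenograft comparison set each tumor against the culture of the same line and GNAS state. The hemidesmosome genes COL17A1 and ITGB4 and the integrin genes ITGA2 and ITGB1 fell, and ITGB8 and ITGA1 rose. Of 44 members, 2 were higher and 7 lower in xenografts, beside 26.1% of all genes, 12.6% higher and 13.5% lower. The medians were 0.03 over the members and 0.02 over all genes. These counts depend on which pairs enter, and so do the calls over all genes. Without the LS174T Dox (+) pair, 0 of 37 members tested passed in either direction, with 11 genes of all. Without the Dox (-) pair 1 rose and 2 fell of 38, with 294 and 302 genes of all. Without the KM12 knock-out pair, 1 rose and 4 fell, with 1010 and 1011 of all. Without the KM12 parental pair, 2 rose and 6 fell, with 1275 and 1338 of all. The fitted differences of the 9 kept their sign in each of these fits.

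COL17A1 stood at 364 and 444 CPM in KM12 cultures and at 125 and 185 in the xenografts. In LS174T it stood at 206 (Dox (-)) and 149 (Dox (+)) in culture and at 40.3 and 20.2 in xenografts. It was lower in 4 of 4 pairs, by -2.01 ± 0.30 on the log2 scale (SE, adjusted p = 0.0133). ITGB4 fell from 1081 and 1082 to 258 and 429 CPM in KM12 and from 614 and 442 to 301 and 181 CPM in LS174T, a log2 difference of -1.43 ± 0.21 (adjusted p = 0.0123). No xenograft reached the lowest culture. Its partner ITGA6 was lower in both KM12 pairs and did not pass over the 4 pairs: it read 823 and 802 CPM in KM12 cultures and 529 and 407 in xenografts, and 854 and 905 CPM in LS174T cultures and 1103 and 830 in xenografts (log2 difference -0.34 ± 0.25, adjusted p = 0.334). ITGA6 and ITGB4 were not tested against each other.

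ITGA2, the alpha chain of a collagen and laminin receptor with ITGB1, lay at 78.3 to 96.3 CPM in cultures and 28.7 to 46.1 in xenografts, and fell by 1.18 on the log2 scale (SE 0.15, adjusted p = 0.0103). ITGB1 lay at 336 to 456 CPM in cultures and 212 to 308 in xenografts, and fell by 0.64 (SE 0.13, adjusted p = 0.0236). COL6A1 read 26.2 and 42.9 CPM in KM12 cultures against 5.79 and 0.97 in xenografts, and 95.5 and 71.0 against 19.5 and 16.2 CPM in LS174T. Its log2 difference was -2.83 ± 0.59 (adjusted p = 0.025), and the KM12 knock-out pair alone was 44.2-fold lower (95% counting interval 28.5 to 72.5). COL4A2 (log2 difference -1.32 ± 0.24) and LAMC1 (-0.85 ± 0.24, adjusted p = 0.0462) were lower in 4 of 4 pairs, with ranges that overlap, and LAMC1 did not pass without the pair block (adjusted p = 0.0737).

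ITGB8, an epithelial and glial chain that with ITGAV activates TGF-beta, rose in each pair: from 7.19 and 5.33 to 41.9 and 23.5 CPM in KM12, and from 4.33 and 5.63 to 15.5 and 16.3 CPM in LS174T. The log2 difference was 2.01 ± 0.23 (adjusted p = 0.0098), and the groups do not overlap. ITGA1, whose dimer with ITGB1 binds collagen IV, rose from 8.67 and 9.32 to 14.0 and 27.4 CPM in KM12 and from 3.81 and 4.64 to 40.9 and 36.7 CPM in LS174T (log2 difference 2.17 ± 0.51, adjusted p = 0.0324). Without the filter on low counts ITGA1 and COL6A1 no longer passed (adjusted p = 0.0799 and 0.119). ITGB2, the beta chain of leukocyte integrins, lay at 0.52 to 1.302 CPM in xenografts and 0.18 to 0.35 in cultures and did not pass (log2 difference 1.60, adjusted p = 0.0684). Of its alpha partners ITGAX read 2.16 and 0.58 CPM in the LS174T xenografts, where ITGB2 was highest, and at most 0.11 elsewhere, while ITGAL and ITGAM stayed under 1 CPM. Of the 14 leukocyte markers CD14 read 7.36 and 4.46 CPM in those xenografts and at most 1.69 elsewhere. CD68 read 1.02 and 0.68 CPM there, against 0.58 and 0.33 in the cultures of that line. Other markers of the list went the opposite way in LS174T. LYZ read 46.7 and 36.4 CPM in cultures and 0.45 and 2.57 in xenografts, and LAPTM5 0.95 and 0.53 against 0.16 and 0.24. PTPRC reached at most 0.0407 CPM and TYROBP was at 0. The part of leukocytes in the ITGB2 values was not tested.

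**Figure D3:**
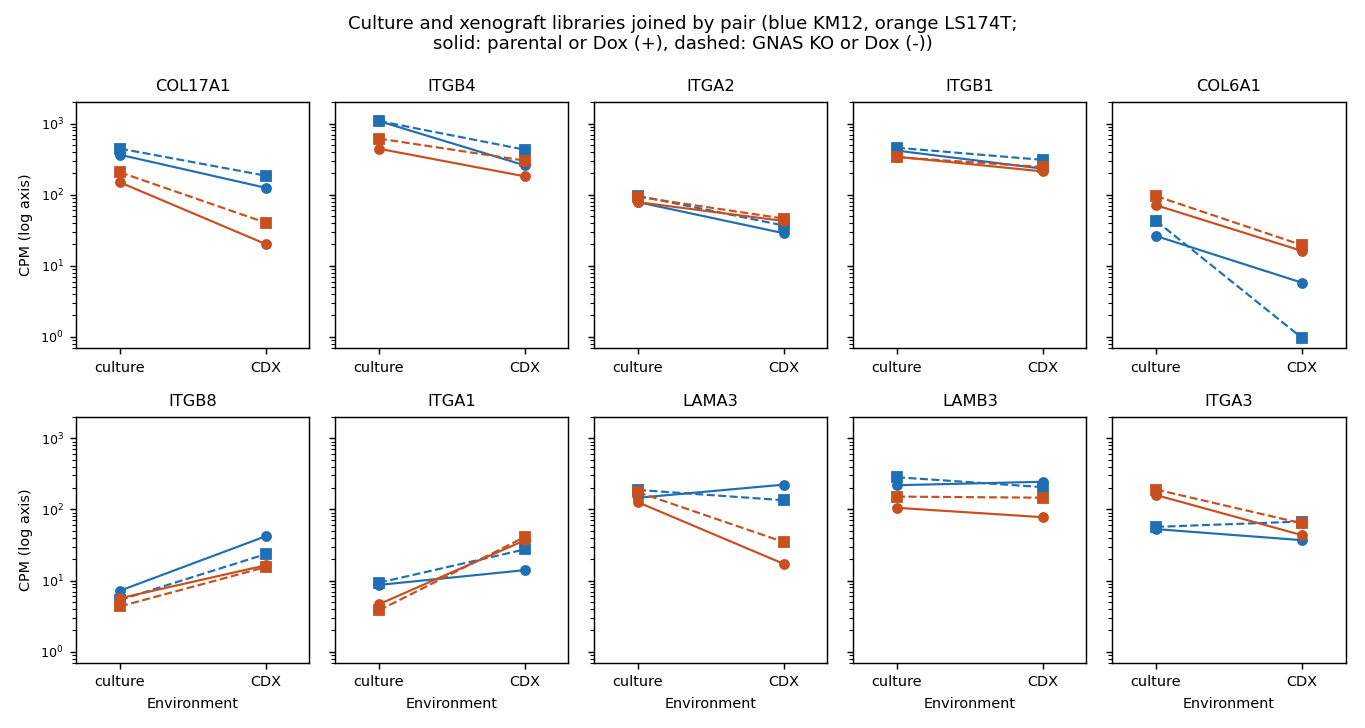
CPM on a log axis in culture and CDX tumor for 10 members, with lines joining each pair; blue is KM12 and orange LS174T, solid lines the GNAS-active and dashed the opposite state. COL17A1, ITGB4, ITGA2, ITGB1 and COL6A1 slope down and ITGB8 and ITGA1 up in 4 of 4 pairs, while LAMA3 drops from 175 to 34.7 and from 126 to 17.1 CPM in LS174T and rises in the KM12 parental pair alone.

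Whether the change from culture to xenograft differed between the lines was tested directly. Of 44 members 14 differed, beside 13.7% of all genes: 8 with the change more positive in KM12 (5.94% of genes) and 6 with it more positive in LS174T (7.74%). Among them ITGA5 and LAMC3 passed the level filter through the LS174T xenografts, and COL28A1 and ITGB7 through 1 line, and this test made more false calls on simulated data than its threshold allows. How many members passed changed widely with the pair left out. Each such fit leaves 1 line with a single pair, so its calls are no result about the members.

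LAMA3 and LAMB3, chains of laminin-332, differed in this. LAMA3 read 175 and 126 CPM in LS174T cultures and 34.7 and 17.1 in xenografts, while in KM12 it read 146 and 188 in cultures and 223 and 135 in xenografts. The difference between the lines was 2.67 ± 0.41 on the log2 scale (SE, adjusted p = 0.0132). LAMB3, the beta chain of the same trimer, did not show it: 151 and 105 CPM in LS174T cultures, 146 and 77.7 in xenografts, and a difference between lines of 0.09 ± 0.27 (adjusted p = 0.853). The promoter window of LAMA3, which lies inside the annotated gene, holds 2 TGANTCA matches and the LAMB3 sequence above holds 1. The part of these matches in the levels was not tested. COL17A1 was lower in tumors by more in LS174T than in KM12 (difference 1.21 ± 0.24). ITGA3, whose dimer with ITGB1 is a laminin-332 receptor, went from 190 and 159 to 63.7 and 43.5 CPM in LS174T and read 52.8 and 56.7 against 36.9 and 67.5 CPM in KM12 (difference 1.59 ± 0.29).

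COL16A1, a collagen that sits along fibrils, moved in opposite directions: from 3.06 and 1.96 to 11.8 and 18.8 CPM in KM12 and from 15.1 and 16.5 to 4.19 and 3.78 CPM in LS174T. The difference was 4.58 ± 0.51 (adjusted p = 0.00184). COL9A2 and COL28A1 differed by -2.61 and -2.65, being more positive in LS174T, and ITGB7 by 2.64. The rise of ITGA1 was larger in LS174T (difference -2.07 ± 0.37), by 10.8-fold and 7.92-fold in its pairs against 1.61-fold and 2.94-fold in KM12. ITGA5, the fibronectin receptor chain, read 2.56 and 1.99 CPM in LS174T xenografts and at most 0.17 CPM in the 6 other libraries. LAMC3 read 1.67 and 0.92 CPM in LS174T xenografts and at most 0.38 elsewhere. Both were at 0 counts in the KM12 xenografts, so their fitted differences, -8.48 for ITGA5 and -8.33 for LAMC3, depend on the prior count and are no measure of size. Of the 12 endothelial markers, ERG was also highest in LS174T xenografts, at 3.74 and 15.8 CPM. EGFL7 stood at 5.57 and 5.34 CPM there, against 4.42 and 4.74 in the cultures of that line. Other markers of the list went the opposite way in LS174T. PECAM1 read 0.28 and 0.56 CPM in cultures and 0 and 0.05 in xenografts, and ESAM 1.57 and 1.13 against 0.77 and 0.63. CDH5 read 0.45 to 1.02 CPM in the 4 xenografts and at most 0.03 in cultures, and KDR was at 0; the part of other cells in the ITGA5 and LAMC3 values was not tested.

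The fibrillar collagen genes COL1A2 and COL5A2 were higher in both KM12 xenografts than in their cultures and lower in both LS174T xenografts than in theirs. COL1A2 read 0.83 and 0.56 CPM in KM12 cultures and 3.73 and 3.45 in xenografts, and 1.53 and 1.33 against 0.24 and 0.15 CPM in LS174T. The lines differed by 5.24 ± 0.70 (adjusted p = 0.00363). COL5A2 differed likewise, by 3.23 ± 0.77, reading 9.52 and 3.49 CPM in KM12 xenografts and 0.57 and 1.26 in those of LS174T. Both differences rest on few counts in the LS174T xenografts, 6 and 3 for COL1A2 and 14 and 26 for COL5A2. The part of mouse reads in these values was not tested.

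COL3A1, the collagen of reticular fibres, stood apart. It had 3841 counts (220 CPM) in the KM12 parental xenograft and 3 to 34 counts (0.15 to 1.13 CPM) in each of the 7 other libraries. That is 756-fold over the knock-out xenograft (95% counting interval 347 to 2061) and 195-fold over the next highest library. COL3A1 had the largest such gap of the genes highest in that library, which had 8 genes at least 10-fold over the next library, where the others had 0 or 1. Since 1 library holds the value, neither the GNAS effect (log2 difference 2.55 ± 2.49) nor the xenograft effect (0.03 ± 3.21) of COL3A1 passed. In the same library COL1A1 read 29.2 CPM, against 1.06 to 7.62 elsewhere, COL11A2 15.8 CPM against at most 4.07, and ITGA10, a collagen receptor chain of cartilage, 7.74 CPM against at most 1.55. The fibroblast marker LUM was 10.0 CPM there and at most 0.64 elsewhere, and MGP 0.75 CPM. DCN was 0.23 CPM, and POSTN, PDGFRA, SFRP2 and FAP were at 0 there. Of the 15 fibroblast markers 7 were at 0 in that library and their sum was 21.2 CPM, against 15.7 in the knock-out xenograft. Their part in the collagen values, like that of mouse reads, was not tested.

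**Figure D4:**
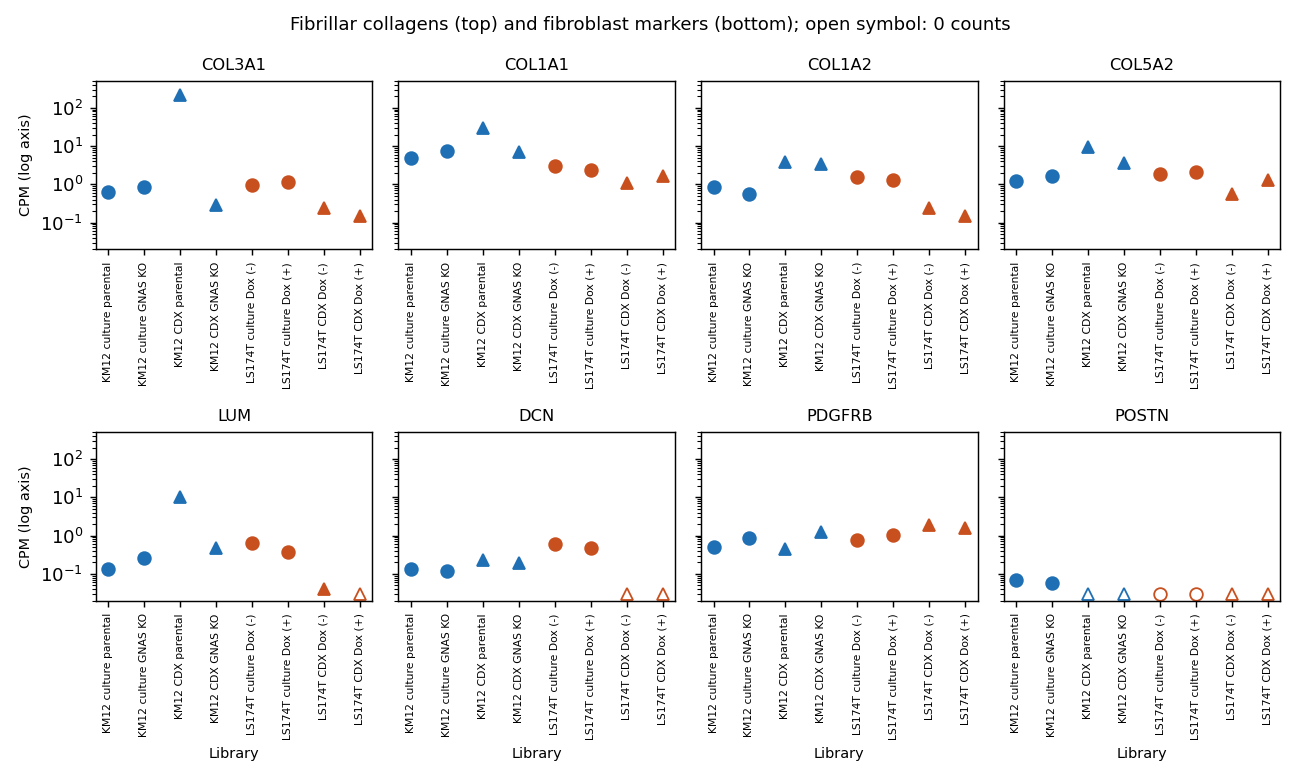
CPM on a log axis in each of the 8 libraries for 4 fibrillar collagens (top) and 4 fibroblast markers (bottom); blue is KM12, orange LS174T, circles cultures, triangles CDX tumors, and open symbols near the lower edge 0 counts. COL3A1 at 220 CPM and LUM at 10.0 CPM peak in the KM12 parental xenograft, where POSTN has 0 counts and DCN is at 0.23 CPM.

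COL18A1 also differed within 1 GNAS pair. In LS174T xenografts it read 289 CPM with Dox and 48.0 without, a ratio of 6.03 (95% counting interval 5.66 to 6.42). In the cultures the ratio was 0.838 (0.811 to 0.867), so the 2 pairs of this line go opposite ways. In KM12 the gene stayed at or below 2.37 CPM.

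No collagen, laminin or integrin gene passed the 4-pair test of GNAS state, and neither did any other gene: 0 of 16070 (0%) were called by edgeR. At an unadjusted p under 0.05 there were 7 members, beside 6.08% of all genes, and 6 of these were lower in the active state, beside 4.00% of all genes. DESeq2 called 57 genes, among them 1 member, COL17A1 (adjusted p = 0.0218), and limma-voom called 0 genes. Without the filter on low counts edgeR called 3 members, COL17A1 (adjusted p = 0.000161) and ITGB4 (0.00179) among them, with 211 lower and 70 higher genes of all. The median log2 difference was -0.06 over the members and 0.01 over all genes.

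Among members lower with active GNAS the smallest p belonged to COL17A1, COL4A2 and ITGB4, none past the threshold. COL17A1 was at 364 against 444 CPM in KM12 cultures (active, then opposite state), 125 against 185 in KM12 xenografts, 149 against 206 in LS174T cultures and 20.2 against 40.3 in LS174T xenografts. It was lower in 4 of 4 pairs (log2 difference -0.57 ± 0.12, adjusted p = 0.776). COL4A2 read 3.68 against 7.35, 1.49 against 2.33, 11.6 against 16.6 and 4.51 against 8.58 CPM in the same order, with a log2 difference of -0.77 ± 0.19. ITGB4 was level in KM12 culture, at 1081 against 1082 CPM, and lower in the other 3 pairs, with ratios of 0.601, 0.720 and 0.601 (log2 difference -0.49 ± 0.13). ITGA3 (-0.44 ± 0.14) and ITGA2 (-0.25 ± 0.09) were lower in 4 of 4 pairs. ITGB8 was higher in 4 of 4 pairs, from 1.06-fold to 1.78-fold (log2 difference 0.43 ± 0.16). COL9A2 (0.53) and COL5A2 (0.58) were next among the higher members, in 3 of 4 pairs each.

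In the culture pairs alone the spread was smaller and 194 of 14251 genes passed (1.36%). That fit rests on a single unreplicated pair of each line. It has fewer residual degrees of freedom than the 4-pair test and leans more on spread borrowed across genes, so its calls are no firmer. There 5 of 40 members passed, and the 5 were lower with active GNAS: COL6A1 (log2 difference -0.57 ± 0.09, adjusted p = 0.00154), LAMB3 (-0.46 ± 0.08), LAMA3 (-0.43 ± 0.08), COL17A1 (-0.39 ± 0.08) and COL4A2 (-0.73 ± 0.17, adjusted p = 0.0262). In the xenografts the lines parted for several of these. LAMA3 was 1.66-fold higher in the KM12 parental than in the knock-out xenograft and at 0.493 of its partner in LS174T. COL6A1 was at 5.96-fold in the KM12 xenografts, on 101 and 20 counts, and 0.829 in those of LS174T.

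LAMA5 and LAMC1 also lay on opposite sides in the xenografts of the lines. LAMA5, the alpha chain of mature epithelial basement membranes, stood at 382 (parental) and 166 (knock-out) CPM in KM12 tumors and at 235 (Dox (+)) and 319 (Dox (-)) CPM in LS174T tumors. In the same order LAMC1 stood at 166 and 79.3 CPM and at 31.7 and 51.0 CPM. The test of a difference in GNAS effect between the lines called 0 of 44 members, beside 0.00622% of all genes (1 gene). The smallest p belonged to LAMC1 (difference 1.01 ± 0.36), LAMB3 (0.65 ± 0.27) and LAMB2 (0.55 ± 0.24), each with an adjusted p of 0.965. How many members passed this test changed with the pair left out. Each such fit leaves 1 line with a single pair, so its calls are no result about the members.

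**Figure D5:**
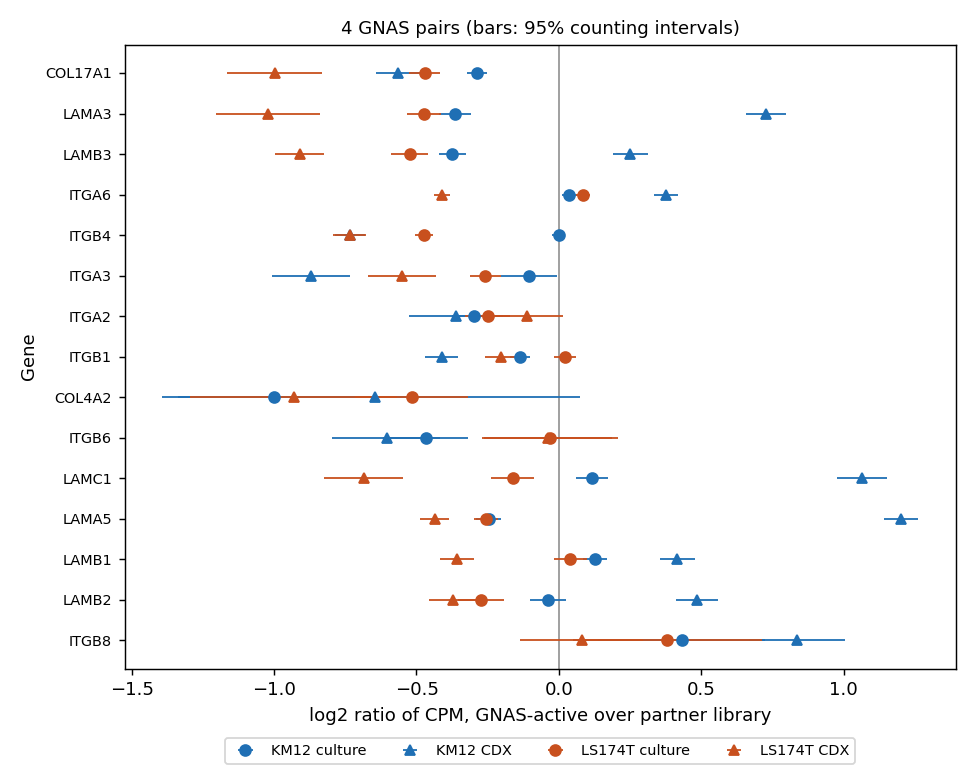
Points give the log2 ratio of CPM in the GNAS-active library over its partner for 15 hemidesmosome, laminin and integrin members in each of the 4 pairs, and bars the 95% counting intervals; blue is KM12, orange LS174T, circles cultures, triangles CDX tumors, and coinciding points hide each other (ITGB4 in both CDX pairs). COL17A1 lies left of 0 in 4 of 4 pairs, while LAMA5 and LAMC1 lie right of 0 in KM12 CDX tumors and left in those of LS174T.

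Genes that make, bind or cut these proteins were counted on the same tests, to be read beside the shares of all genes called: 12.6% higher and 13.5% lower in xenografts, and 14.8% higher and 16.7% lower in KM12. Of 21 tested collagen processing enzymes, 0 rose and 5 fell in xenografts, and 5 were higher and 1 lower in KM12. The lysyl oxidase LOXL1, which crosslinks collagen, lay at 37.9 to 85.6 CPM in KM12 and 0.15 to 1.75 in LS174T (log2 difference 7.05 ± 0.68). PCOLCE, which speeds procollagen cleavage, and P3H1, a prolyl 3-hydroxylase, were higher in KM12 by 3.92 and 1.60. LOXL4 was at 0 counts in the 4 xenografts and read 8.50 and 2.88 CPM in LS174T cultures.

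Of 24 other matrix genes tested, 2 rose and 1 fell in xenografts, and 8 were higher and 6 lower in KM12, beside those same shares. THBS2, a matrix thrombospondin, lay at 340 to 1490 CPM in KM12 and 0.33 to 2.09 in LS174T. SMOC1, a calcium-binding basement membrane protein, was higher in KM12 by 7.81 on the log2 scale, and FRAS1, which links epithelium to the membrane, by 6.31. BGN, the proteoglycan biglycan, lay at 0 to 0.26 CPM in KM12 and 3.70 to 22.7 in LS174T.

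Of 30 integrin adaptor and signalling genes, 3 rose and 8 fell in xenografts (12.6% and 13.5% of all genes), with a median log2 difference of -0.47 against 0.02 over all genes. PLEC, which joins integrin beta 4 to keratin, read 832 to 2493 CPM in cultures and 219 to 760 in xenografts (log2 difference -1.61 ± 0.18, adjusted p = 0.00968). NEDD9, a docking protein, rose by 2.47 ± 0.33. CD151, a tetraspanin partner of laminin-binding integrins, was lower in KM12 (log2 difference -1.30), as was TNS2, a tensin (-2.11). Of 8 other collagen and laminin receptors, 1 rose (SDC4, a syndecan, by 0.66) and 1 fell (DAG1, the dystroglycan gene, by 1.13) in xenografts. Between the lines, DDR1, a collagen-activated kinase, was lower in KM12 (-0.91) and BCAM, a laminin alpha 5 receptor, higher (3.03).

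Of 16 proteases and inhibitors, 1 rose and 2 fell in xenografts, and 4 were higher and 4 lower in KM12, beside 12.6% and 13.5%, and 14.8% and 16.7%, of all genes. MMP15, a membrane metalloproteinase, was lower in xenografts (-1.22 ± 0.16) and in KM12 (-1.08 ± 0.14). TIMP1, a metalloproteinase inhibitor, lay at 166 to 196 CPM in KM12 and 46.5 to 68.2 in LS174T. MMP7, the epithelial matrilysin, was higher in KM12 by 2.95. On GNAS state 0 genes of these 5 lists passed edgeR's test.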

How the data were processed

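RNA from 8 libraries, 1 per group, was poly(A)-selected and primed with random hexamers, per the labels' protocols, which name no step that keeps strand. The authors deposited 1 table of raw read counts per gene. Per the submitters' processing notes it was made with STAR 2.7.2b and HTSeq 0.11.0, and the builds hg38 and GRCm39 are named. The annotation release, strand setting and handling of mouse reads are not given in the sources used here.

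Symbols, coordinates on GRCh38 and merged exon lengths came from GENCODE release 29, which named 56753 of 60483 genes (93.8%). Libraries were scaled with TMM (factors 0.904 to 1.107). CPM values use those factors. The 16070 genes that reached 1 CPM in 2 or more libraries were tested with edgeR 4.0.16 (R 4.3.3), quasi-likelihood F test, robust, Benjamini-Hochberg over all tested genes, threshold 0.05, with the 4 matched pairs as a block (3 residual degrees of freedom, 2 for differences between lines). The SE is the absolute log2 difference over the square root of F. It borrows spread across genes. P-values measure how far pairs of different lines, environments or states vary, and no repeated cultures or animals. Single pairs are given as CPM ratios with 95% counting intervals, which cover counting error only, or against a floor of 3 counts. Tested on simulated data, the fits gave more false calls than the threshold allows in each of the 5 comparisons, and the largest shares of false calls in the 2 differences between lines.

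Alternatives were RLE scaling, no filter, DESeq2 1.42.0, limma-voom (limma 3.58.1), each pair left out, no pair block, and culture or CDX pairs alone. The members and lists were chosen with earlier results of these data known. Genes are named by rule: all members past a test, up to 10 per direction (5 for differences between lines), or the 3 of smallest p; the 5 highest members per family per exon length; up to 4 genes per list; other members by role, and those of the KM12 parental xenograft after their values were seen. Results for 2 genes that the rule picks are not reported here.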

Additional observations from a re-analysis of the deposited data

Results flagged for a closer look

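The change from culture to xenograft differed between KM12 and LS174T, by edgeR's interaction test, for 14 of 44 members, beside 13.7% of all genes. Of these 14, 13 are given here as KM12 minus LS174T on the log2 scale. ITGA5 and LAMC3 passed the level filter through the LS174T xenografts, and COL28A1 and ITGB7 through 1 line. This test made more false calls on simulated data than its threshold allows. The change was more positive in KM12 for COL1A2 (5.24), COL16A1 (4.58), COL5A2 (3.23), LAMA3 (2.67), ITGB7 (2.64), ITGA3 (1.59) and COL17A1 (1.21). It was more positive in LS174T for ITGA5 (-8.48), LAMC3 (-8.33), COL28A1 (-2.65), COL9A2 (-2.61), ITGA1 (-2.07) and ITGA6 (-0.93). The values of ITGA5 and LAMC3 are set against 0 counts in both KM12 xenografts and depend on the prior count. That of COL1A2 rests on 6 and 3 counts in the LS174T xenografts. ITGA6 read 823 and 802 CPM in KM12 cultures and 529 and 407 CPM in KM12 xenografts, against 854, 905, 1103 and 830 CPM in LS174T.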

How the results depend on the processing

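Each group is 1 library. Members called lower with active GNAS were 3 without the filter on low counts, 1 with DESeq2 and 5 in the culture pairs alone, against 0. Members higher in xenografts were 4 with DESeq2 and 4 without the pair block, against 2, and ranged from 0 to 2 as each pair was left out, with 0 to 6 lower. Members higher in KM12 ranged from 7 to 11 and lower from 4 to 6, with 16 lower in the culture pairs alone. For the difference of the xenograft effect between lines, 15 were more positive in KM12 without the filter, and pair by pair 0 to 15 in that direction and 0 to 7 in the other. For the difference of the GNAS effect, 2 were higher without the filter and 0 to 8 pair by pair. Fits on part of the pairs use fewer libraries, and the fit without the filter more genes. DESeq2 and the fit without the pair block used the same 8 libraries and 44 members. Calls over all genes moved too: 3182 genes were higher in xenografts with DESeq2 and 2745 without the pair block, against 2023. The cause of these shifts was not tested. The other counts here stand without a share of all genes and are no result about the members. The GNAS difference of COL5A2 changed sign in the culture pairs alone (-0.0906). Of the other values for single named members, 361 kept direction and side of the threshold, 70 no longer passed and 9 newly passed. Another prior count moved no single-pair direction. The labels carry no replicate numbers, and the pairs are of line, environment and GNAS state. At 3 to 34 counts a gene in most libraries, as for COL3A1, depth limits what can be seen.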
